A study of Bos taurus with 20 samples.

Results

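Interferon-induced genes were followed through the cells of the bovine antral follicle: IFITM3, ISG15, MX1, MX2, IRF1, IFI6 and IFIH1. These 7 genes, of 22550 genes or transcripts on the array, were chosen by name from levels already seen on these arrays, so their levels are given as a description with no test. They were measured by 18 of the 61325 non-control spots of a custom 1-colour Agilent array, which held 15 distinct 60-base sequences. Gene expression was measured on 20 arrays, 4 for each of 5 groups, all from ovaries of slaughtered cattle and from follicles of 3 to 6 mm. TH was the theca layer scraped off the follicle wall, GC were the granulosa cells that line it, CC were the cumulus cells around the oocyte, and the oocyte arrays held the egg cells themselves, all 4 labelled immature. The last group was CC taken after 4 h of in vitro maturation (IVM), the culture in which the cumulus-oocyte complex resumes meiosis. How many animals or cells went into a sample, and the age and breed of the animals, are not given in the sources used here, so n counts arrays, which the study's methods call biological replicates.

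Interferons are secreted proteins that cells release on sensing viral nucleic acid. They bind receptors that signal through JAK kinases and STAT factors, and the STAT complexes then switch on a large group of genes that block viruses, present antigen and tune the response itself. In cattle this system is also known from early pregnancy, when interferon tau from the embryo raises ISG15, MX1 and MX2 in the uterus and in blood cells. Cells also express some of these genes at a basal level with no infection.

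Levels are given as log2 of the background-subtracted signal minus the 75th percentile of its array, with the median taken over the spots of a gene. A level of 0 is thus a signal as bright as that percentile, and a difference of 1 is a 2-fold difference. A spot counted as measured where the scanner software marked it well above background. In bulk RNA of this kind, fewer cells of a type and less RNA per cell cannot be told apart. The share of probes well above background was 54.2% to 62.8% on the somatic arrays and 49.3% to 68.8% on the oocyte arrays, with oocyte replicate 2 the lowest. The labels fitted the markers, since the summed linear signal of 5 theca markers was 575 to 831 in TH against at most 115 elsewhere, that of 4 granulosa and cumulus markers was 110 to 769 in GC and in CC before and after IVM against at most 33.4 in TH and 3.02 in the oocyte, and that of 6 oocyte markers was 248 to 330 in the oocyte against at most 3.00 elsewhere. TH, GC, CC and the oocyte shared 2 slides, with replicates 1 and 2 on slide 1 and replicates 3 and 4 on slide 2, whereas the 4 arrays of CC after IVM lay on a slide of their own, so that IVM and slide cannot be told apart.

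Probe sequences are shown for IFITM3, ISG15, IFIH1, IRF1 and MX2. For IFIH1, IRF1 and MX2 the values turn on which probe is read. Probe 1 of IFITM3 is printed up to its first stop triplet in the frame that starts at base 1, which is in capitals. Probe 2 of ISG15 and probe 2 of IFIH1 are printed whole, and both hold no stop triplet in that frame. For probe 1 of IFIH1 and both probes of IRF1 the first 30 bases are given, and for MX2 the first 30 of the 48 bases that its probes have in common.
IFITM3 probe 1: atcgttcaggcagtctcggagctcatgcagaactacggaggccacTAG
ISG15 probe 2: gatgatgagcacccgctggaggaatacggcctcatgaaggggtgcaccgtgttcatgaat
IFIH1 probe 1: caaaaccctttagtgtggagcagtatattg
IFIH1 probe 2: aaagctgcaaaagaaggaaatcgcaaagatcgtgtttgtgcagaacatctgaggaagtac
IRF1 probe 1: gtgtgctaaatcaaacacttgaaatgtgac
IRF1 probe 2: agtggctaccatattgaatagtacaggtag
MX2 shared stretch: ttttcttataaattcagtcgtaccacctgc
None of the 15 sequences was also used for a spot of another gene on the array. A probe can still catch a close relative that differs by a few bases, as in the IFITM and MX families, and this was not tested. In the coordinates of the array annotation (UMD 3.1), MX2 lies at chr1:143119272-143155057 and MX1 beside it at chr1:143176083-143204865. IFIH1 lies at chr2:34217173-34272473, IFI6 at chr2:126246561-126250182, IRF1 at chr7:23235653-23243697, ISG15 at chr16:52714627-52715665 and IFITM3 at chr29:51367009-51368065. The files do not say which exon or untranslated region a probe lies in.

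The oocyte had the lowest mean of all 5 groups for 6 of the 7 genes, and MX2 was too close to background for a rank. Against the mean of the other 3 immature cell types (TH, GC and CC, pooled as somatic cells), the oocyte differences ran from -8.36 for IFITM3 to -1.87 for MX2, with a median of -6.84, where the median of all genes on the array was -0.52. Since MX2 and IFIH1 were above background on no oocyte array, IRF1 on 1, ISG15 on 2, and MX1 and IFI6 on 3, these differences rest partly on background values. With each oocyte array set no lower than the lowest signal that passed on it, the median was -5.65. The SE given for these differences comes from the limma fit, and that of a difference between a pair of groups from their SDs. All 4 oocyte arrays lay below all 12 arrays of TH, GC and CC for 5 of the 7 genes (IFITM3, ISG15, MX1, IRF1 and IFI6), and 20.6% of all genes showed the same separation. The rule that chose the genes used these levels, so nothing is read from that count. Among the somatic groups, 3 genes (MX1, IRF1 and IFIH1) were lower on every GC array than on every CC array, where 7.92% of all genes were. No gene of the 7 set TH apart from all GC and CC arrays, and none separated CC after IVM from CC. The shares of all genes with those separations were not counted, so nothing is read from these counts either.

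**Figure D1:**
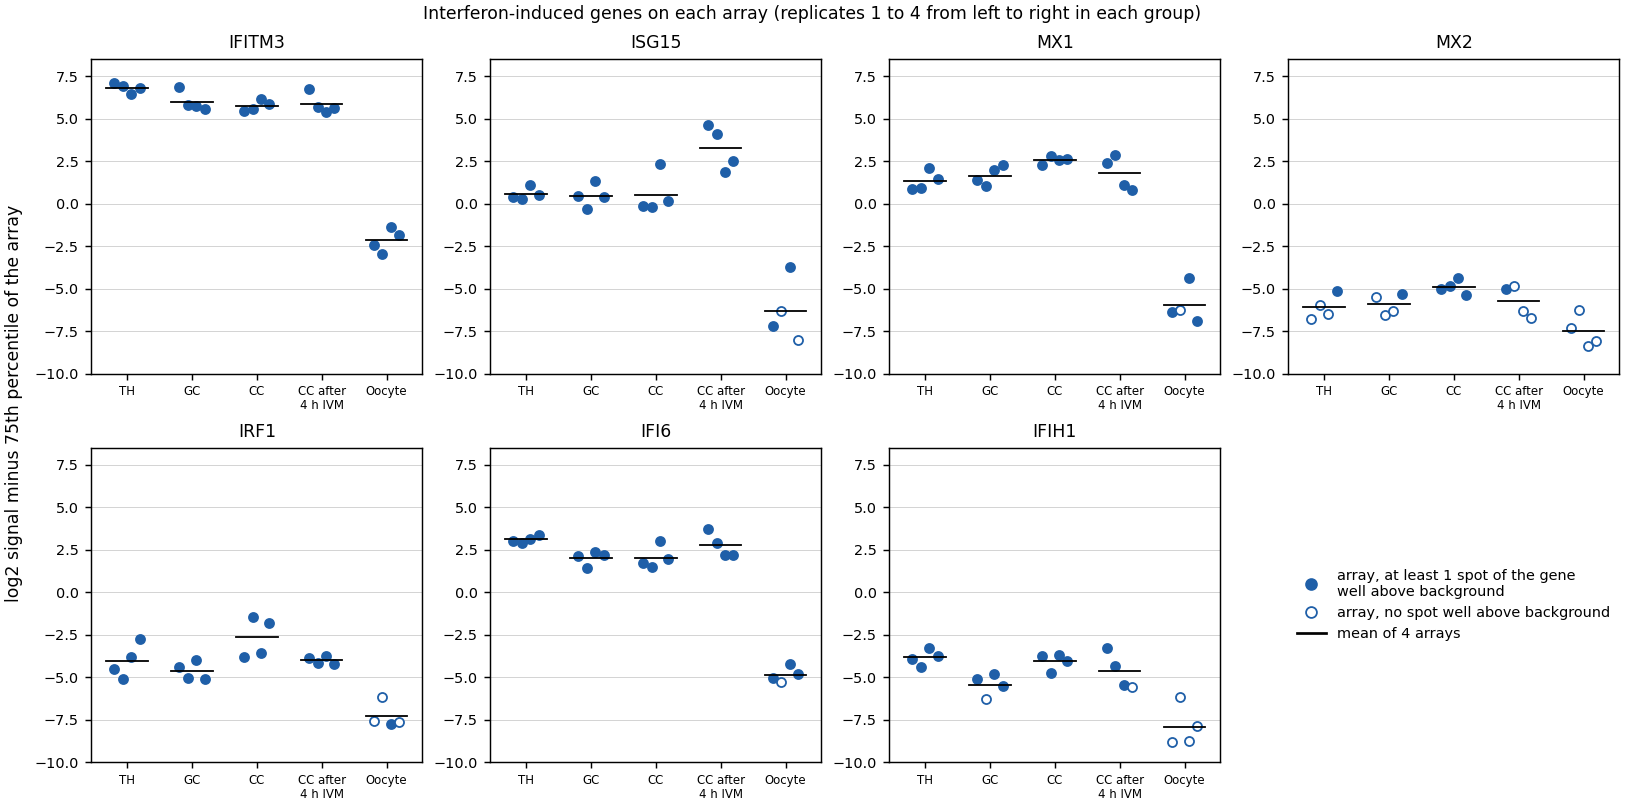
Level of each of the 7 genes (y axis, log2 signal minus the 75th percentile of the array) on each of the 20 arrays (x axis, groups of 4 replicates, left to right). Filled points are arrays with at least 1 spot well above background and lines are group means. The oocyte means are the lowest lines, with no oocyte array above background for MX2 and IFIH1, and ISG15 reaches 4.60 and 4.11 on the first 2 arrays of CC after IVM.

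IFITM3 and IFI6 encode membrane proteins of the effector arm. IFITM3 blocks the fusion of enveloped viruses with endosomes, and IFI6 is a small protein of mitochondrial and endoplasmic reticulum membranes. IFITM3 was 7.09, 6.93, 6.45 and 6.78 on the TH arrays, 6.85, 5.78, 5.76 and 5.58 on the GC arrays, and 5.44, 5.57, 6.13 and 5.88 on the CC arrays. In CC after IVM it was 6.72, 5.71, 5.40 and 5.62, and in the oocyte -2.46, -2.98, -1.37 and -1.87. Every array of every group was well above background for IFITM3, so this is the 1 gene of the 7 with a measured level on all 4 oocyte arrays. The summed granulosa and cumulus markers were 2.20 to 3.02 on those arrays against 381 to 393 in CC. The part of somatic RNA in the oocyte levels was not tested. The oocyte mean of IFITM3, -2.17 ± 0.70 (SD, n = 4), was lower than the somatic mean by 328-fold (log2 difference -8.36, SE 0.27). The difference was -9.00 within slide 1 and -7.72 within slide 2. The order of the means was TH (6.81 ± 0.27), GC (5.99 ± 0.58), CC after IVM (5.86 ± 0.59) and CC (5.76 ± 0.31). TH lay above CC on every array, by 1.06 (SE 0.21), while TH and GC overlapped through GC replicate 1 (TH was higher than the same-numbered GC array by 0.24, 1.15, 0.69 and 1.20), and the last 3 groups overlapped one another. Both distinct probe sequences gave that separation of TH from CC.

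IFI6 was 3.03, 2.92, 3.11 and 3.38 in TH, 2.15, 1.45, 2.34 and 2.21 in GC, and 1.73, 1.51, 2.99 and 1.92 in CC. In CC after IVM it was 3.74, 2.90, 2.20 and 2.20, and in the oocyte -5.07, -5.29, -4.21 and -4.83, with oocyte replicate 2 not well above background. Every TH array lay above every GC array, by 1.07 (SE 0.22), and GC and CC had means of 2.04 each, with SDs of 0.40 and 0.66. CC replicate 3 stood at 2.99, above the other CC arrays and within the range of TH. Setting replicate 2 of the oocyte to the lowest signal that passed as above background there, the somatic mean was at least 122-fold higher than the oocyte mean.

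ISG15 is a ubiquitin-like protein that cells attach to newly made proteins and also secrete. It was 0.40, 0.28, 1.07 and 0.52 in TH, 0.44, -0.34, 1.32 and 0.40 in GC, and -0.13, -0.21, 2.33 and 0.12 in CC. The 3 somatic means before culture were 0.57 ± 0.35, 0.45 ± 0.68 and 0.53 ± 1.21, and the arrays of these groups overlapped throughout. In CC after IVM it was 4.60, 4.11, 1.86 and 2.53, a mean of 3.28 ± 1.30. Those 4 arrays lay above all TH and all GC arrays, but 1 of them was below CC replicate 3. The difference between CC after IVM and CC was 2.75 (SE 0.71), a 6.71-fold higher level after IVM, and it was 3.35 without CC replicate 3. Leaving out each of the 8 arrays in turn gave 2.30 to 3.35. The brighter probe 1 and the dimmer probe 2, whose sequence is shown above, both had that order of groups, with means of 4.02 and 2.53 after IVM and of 1.23 and -0.17 in CC.

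In the oocyte ISG15 was -7.22, -6.32, -3.76 and -8.01, and only replicates 1 and 3 were well above background. With replicates 1, 2 and 4 at the lowest signal that passed on their arrays, the somatic mean was at least 50.2-fold higher. Replicate 1 passed by probe 1 alone, and its median over spots lay below that signal (-6.84). Oocyte replicate 3 was the highest of its group for ISG15, and replicate 3 was also the highest of the TH, GC and CC arrays. It was the highest for IFI6 in GC, CC and the oocyte. In CC after IVM replicate 3 was instead the lowest for ISG15, and replicate 1 was the highest for IFITM3, ISG15, IFI6 and IFIH1, the last by its probe 1 too.

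**Figure D2:**
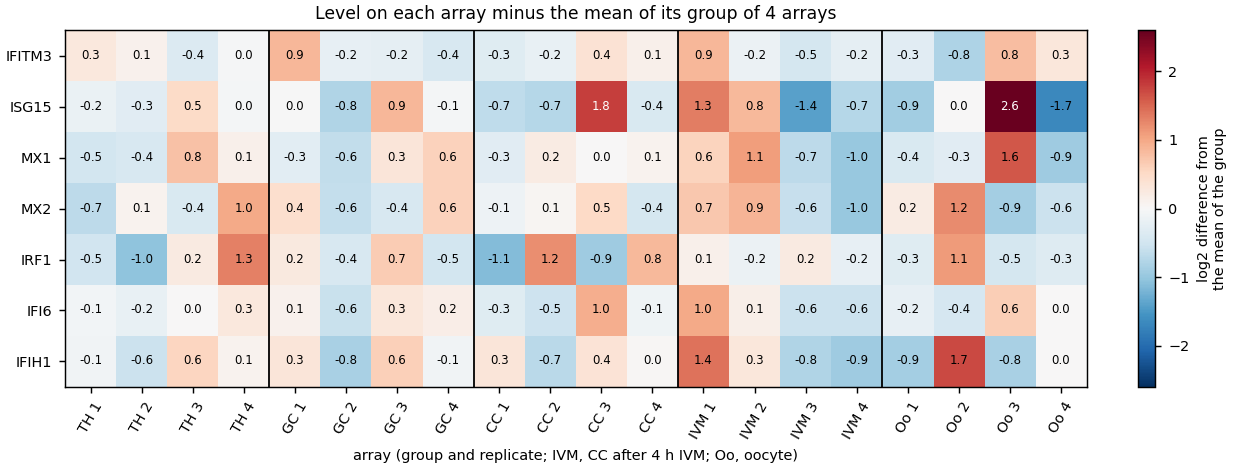
Level of each gene (rows) on each array (columns) minus the mean of its group of 4 arrays, as log2 difference in colour and in figures. For ISG15, replicate 3 is above the mean of TH, GC, CC and oocyte arrays, and replicates 1 and 2 of CC after IVM are above replicates 3 and 4.

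MX1 and MX2 are dynamin-like GTPases that trap incoming viruses. MX1 was 0.83, 0.90, 2.08 and 1.44 in TH, 1.37, 1.01, 1.96 and 2.24 in GC, and 2.26, 2.78, 2.56 and 2.64 in CC. All 4 CC arrays lay above all TH and all GC arrays. CC, at 2.56 ± 0.22, was higher than GC (1.65 ± 0.56) by 0.91 (SE 0.30) and than TH (1.31 ± 0.58) by 1.25 (SE 0.31). The GC minus CC difference was -1.32 within slide 1 and -0.50 within slide 2. After IVM the arrays of CC stood at 2.36, 2.86, 1.09 and 0.79, so that replicates 1 and 2 were near the CC arrays and replicates 3 and 4 below them. The 3 distinct MX1 sequences kept the order of CC above GC above TH. The sequence present in duplicate gave a median difference of 0.05 between its spots over 17 arrays, with 0.16 the largest.

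In the oocyte MX1 was -6.36, -6.27, -4.35 and -6.90, and replicate 2 was not well above background. The somatic mean was at least 128-fold higher. MX2 was near background in most samples. It was well above background on all 4 CC arrays, at -5.04, -4.86, -4.39 and -5.36, on 1 array each of TH, GC and CC after IVM, and on no oocyte array. By the brighter of its overlapping probes, which passed on 3 of the 4 CC arrays, CC was at least 2.50-fold higher than the oocyte. By the median over spots that bound was 1.99-fold. All TH and GC arrays lay below the CC arrays by the brighter probe, but none of them was above background. By the other probe, TH replicate 4 (-4.65) and GC replicate 4 (-4.23) passed and lay above every CC array (highest -4.69). The probes thus differed on TH and GC against CC. Since few arrays measured it, no order of the other groups is given for MX2, and its GC minus CC difference, below 0 here, became 0.10 with another background correction.

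IRF1 is a transcription factor that activates interferon genes and many of their targets, and IFIH1 (MDA5) is a sensor of long double-stranded RNA in the cytoplasm. Both had 1 probe well above background in somatic cells and 1 that mostly was not, so the level of the measured probe is given. Probe 2 of IRF1 was -2.95, -3.87, -2.45 and -2.34 in TH and -3.15, -3.60, -2.67 and -3.96 in GC. In CC it was -2.15, 0.28, -1.87 and -0.07, with replicates 2 and 4 standing above replicates 1 and 3. All CC arrays lay above all GC and TH arrays by that probe. In CC after IVM it was -2.49, -2.65, -1.87 and -3.36, which overlapped CC. Probe 1, well above background on 3 CC arrays, 1 TH array and no other, had its highest levels on CC replicates 2 and 4 too, at -3.14 and -3.61. In the oocyte 1 array passed, at -6.69 by probe 2, and with the brightest spot of the gene the somatic mean was at least 11.3-fold higher. By the median over spots that bound was 4.34-fold.

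Probe 1 of IFIH1 was -1.76, -3.45, -1.49 and -1.13 in TH, -4.24, -5.42, -3.30 and -4.22 in GC, and -2.23, -2.20, -2.31 and -2.13 in CC. GC replicate 2 was not well above background. All 4 GC arrays, with a mean of -4.30, lay below all CC arrays, with a mean of -2.22, and overlapped TH through TH replicate 2, although TH was above the same-numbered GC array in all 4 cases. After IVM the CC arrays stood at -1.63, -2.11, -3.77 and -4.58, on both sides of the CC arrays, with replicate 4 not above background. No oocyte array was above background for either probe, so only a bound can be given. The somatic mean was at least 8.44-fold higher by probe 1, and at least 2.74-fold higher by the median over spots. Probe 2, which is printed above, was above background on 1 CC array alone.

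**Figure D3:**
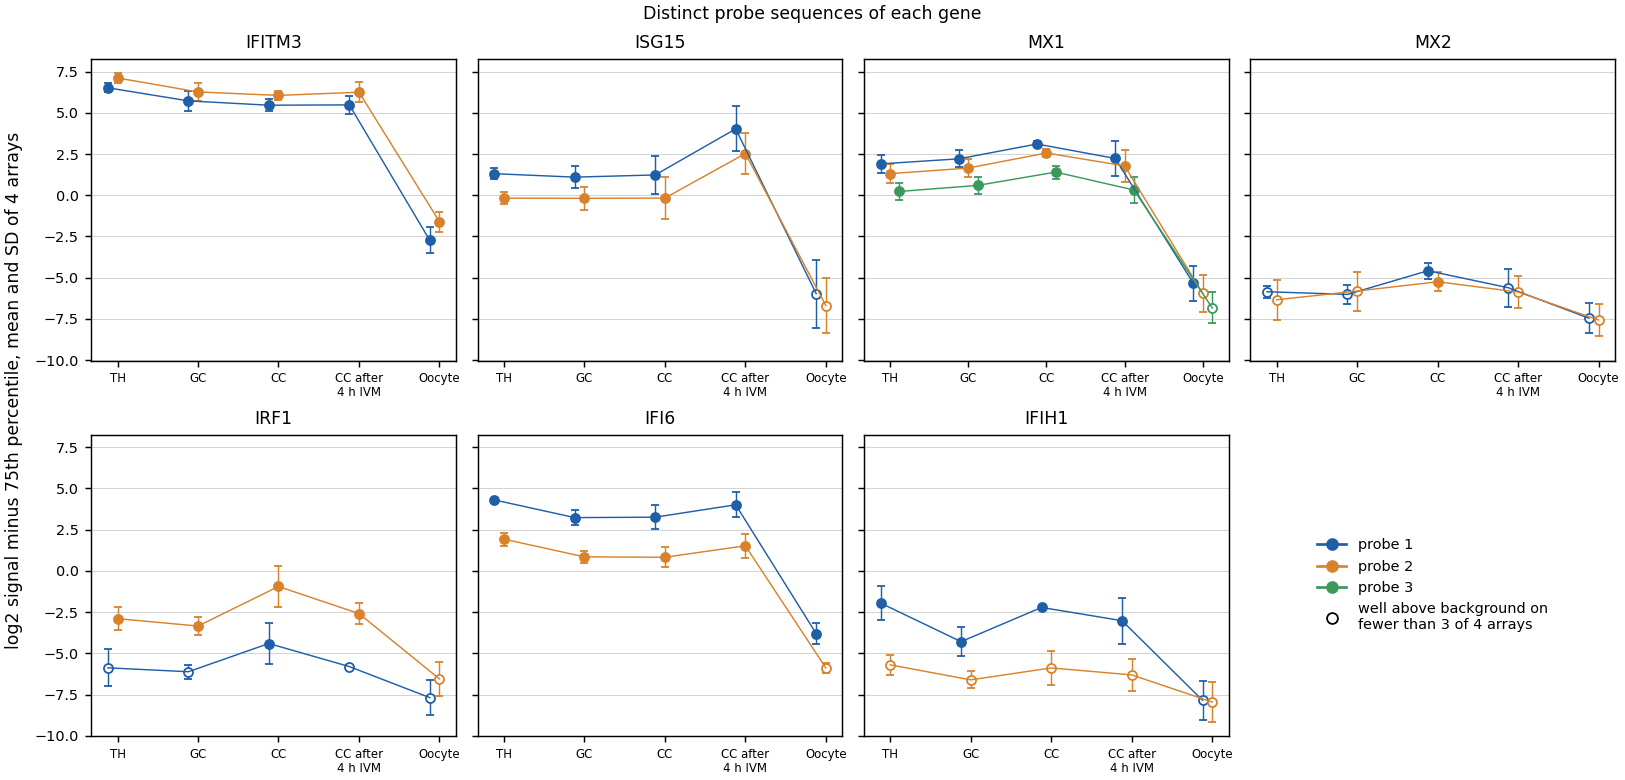
Mean and SD of 4 arrays for each distinct probe sequence (colours) of the 7 genes in the 5 groups, on the log2 scale of signal minus the 75th percentile of the array. Open points mark probes that passed as above background on at most 2 arrays of the group. The probes of IRF1 and of IFIH1 stand apart in level, and for IFIH1 the dimmer probe is open in all 5 groups.

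Leukocytes and endothelial cells carry interferon-induced genes as well, and their markers were not spread evenly. Of 15 leukocyte markers, 12 were above background on at least 3 TH arrays, 11 in GC, 9 in CC and 9 in CC after IVM. Their summed linear signal was 10.1 to 16.5 in TH, 0.912 to 2.99 in GC and 0.566 to 2.35 in CC, with CC replicate 3 the highest of its group. It was 4.14 and 4.85 on replicates 1 and 2 of CC after IVM and 3.29 and 1.79 on replicates 3 and 4. PTPRC, the pan-leukocyte marker, was above background on the 4 TH arrays and on no other. Of 7 endothelial markers, 6 passed in TH, 4 in GC and 3 in CC, and the sum was 4.69 to 9.28 in TH against 0.191 to 1.17 in GC and CC. In the oocyte 8 of the 15 leukocyte markers passed and the sum was 12.2 to 14.9, most of it from CSF1R (mean level 3.70), with CD3E next at -0.07. The other 7 (PTPRC, AIF1, C1QB, CD163, ITGAM, MS4A1 and CD74) were above background on no oocyte array. Of the endothelial markers 5 passed in the oocyte, with a sum of 3.00 to 4.52. The part of these cells in the levels of the 7 genes was not tested.

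The rest of the interferon pathway was read from lists of 118 genes by role, which leave out the 7 genes above, and 106 of them were on the array. Earlier results of these data were known when the lists were made, so the counts are no independent test. For the 106 genes, limma was fitted over all 22550 genes and p-values were adjusted over all of them. Differences among TH, GC, CC and the oocyte passed an adjusted p of 0.05 for 95 of the 106 genes, where 71.3% of all genes passed. In the oocyte 60 pathway genes were lower than the somatic mean (38.3% of all genes) and 32 were higher (32.9% of all genes). The median difference over the 106 genes was -0.95. The lower genes were mostly induced effectors, with 37 of 50 lower and 8 higher, and their median was -1.86. The 10 brakes of the pathway had 6 higher and 2 lower, and the 8 interferon regulatory factors 4 higher and 3 lower.

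**Figure D4:**
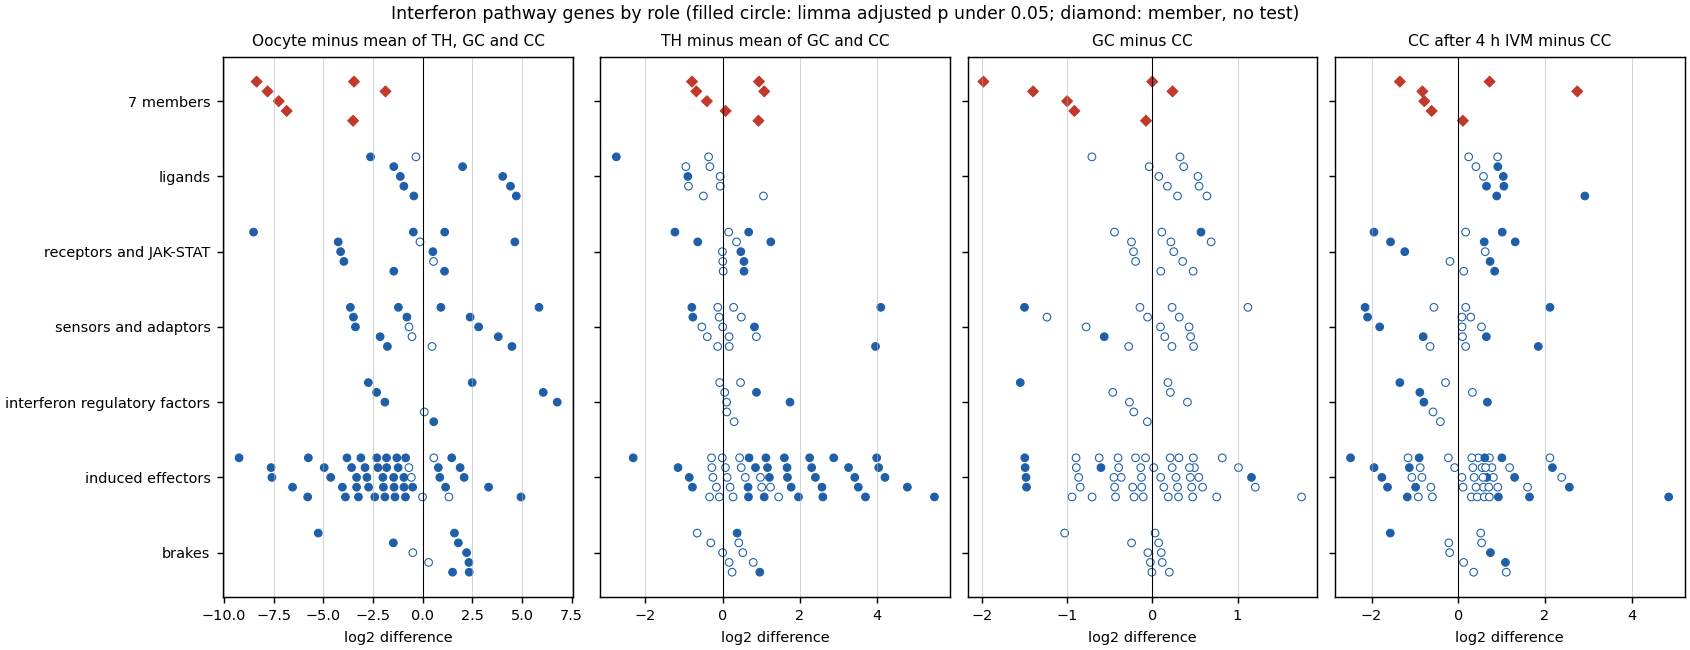
Log2 difference (x axes) of each pathway gene in 4 comparisons, by role (rows). Filled circles passed an adjusted p of 0.05 by limma, open circles did not, and diamonds are the 7 genes, which were not tested. In the oocyte panel most induced effectors lie left of 0, while the regulatory factors reach 6.77.

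The effectors that fell most in the oocyte were IFITM2 (difference -9.24, SE 0.36, adjusted p = 2.56e-12 by limma), a close relative of IFITM3, then IFIT5, which binds viral RNA, IFI27 and LGALS9. Their differences were -7.63, -7.59 and -6.55. Each of these genes was picked among those whose oocyte arrays all lay below the somatic arrays. Nothing is thus read from that separation. In the oocyte IFI27 was above background on 4 arrays, IFITM2 on 3, and IFIT5 and LGALS9 on 2 each. IFNAR2, a chain of the type I interferon receptor, was between 0.63 and 1.67 on the TH, GC and CC arrays and above background on no oocyte array, so that the somatic mean was at least 129-fold higher (adjusted p = 8.49e-14, limma). The other receptor chains did not share 1 direction. IFNGR2 of the interferon gamma receptor and IL10RB of the lambda receptor fell by 4.13 and 4.25, and IFNGR1 rose by 1.10. The oocyte arrays of IFNGR1 overlapped those of TH, with means of 0.18 in the oocyte and -0.09 in TH. IFNAR1 and IFNLR1 were above background on at most 1 array of any group. Of the signalling proteins behind the receptors, TYK2 fell by 3.97, while STAT3 rose by 4.64 and JAK1 by 0.51. JAK1 in the oocyte also overlapped TH, with means of 1.89 in the oocyte and 1.74 in TH. The rise of STAT2, by 1.11, was measured against somatic arrays that were all below background and reversed with other background handling. JAK2 fell by 0.47, a call that was lost with quantile normalization or with the array median.

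Several regulators and sensors were instead higher in the oocyte. IRF8, a transcription factor best known from myeloid cells, was 5.65, 5.52, 5.66 and 5.62 in the oocyte and between -3.03 and 0.39 in TH, GC and CC, a rise of 6.77 (SE 0.19, adjusted p = 6.65e-14, limma) given by all of its 4 spots. DHX58 (LGP2), a relative of IFIH1 that modulates its signalling, was 5.17, 4.85, 4.92 and 5.23 in the oocyte and between -1.98 and 0.07 in the other 3 cell types, a rise of 5.85 (SE 0.18). All 6 of its spots had that direction. Thus IFIH1 was above background on no oocyte array, while DHX58 was well above on all 4. IFIT3, an effector that binds IFIT1, was 0.18 to 0.35 in the oocyte, a rise of 4.95 over the somatic mean. By group mean TH, at -2.12 to -1.60, was the nearest of the other groups. Replicate 1 of CC after IVM stood nearer, at -0.21.

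Of the 10 interferon genes on the array, IFNB1 was above background on the 4 oocyte arrays, at -2.20, -2.23, -2.53 and -2.44, and on no other array of the series. It was at least 7.42-fold higher in the oocyte than in the somatic mean (adjusted p = 1.62e-13, limma). The related genes IFNB2 and IFNB3 had oocyte means of -3.47 and -2.57, and IFNW1 -4.68. Genes of this family are close copies of one another, so that the signal of 1 may be read by the probes of another, and this was not tested. IFNG, the type II interferon, was above background on 1 TH array and no other, and IFNT on 1 array of CC after IVM. IFNAG and IFNAH were each measured by 1 of their spots, the others being at background nearly throughout. The group means of that spot were -3.85 to -2.64 for IFNAG and -4.33 to -2.63 for IFNAH.

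**Figure D5:**
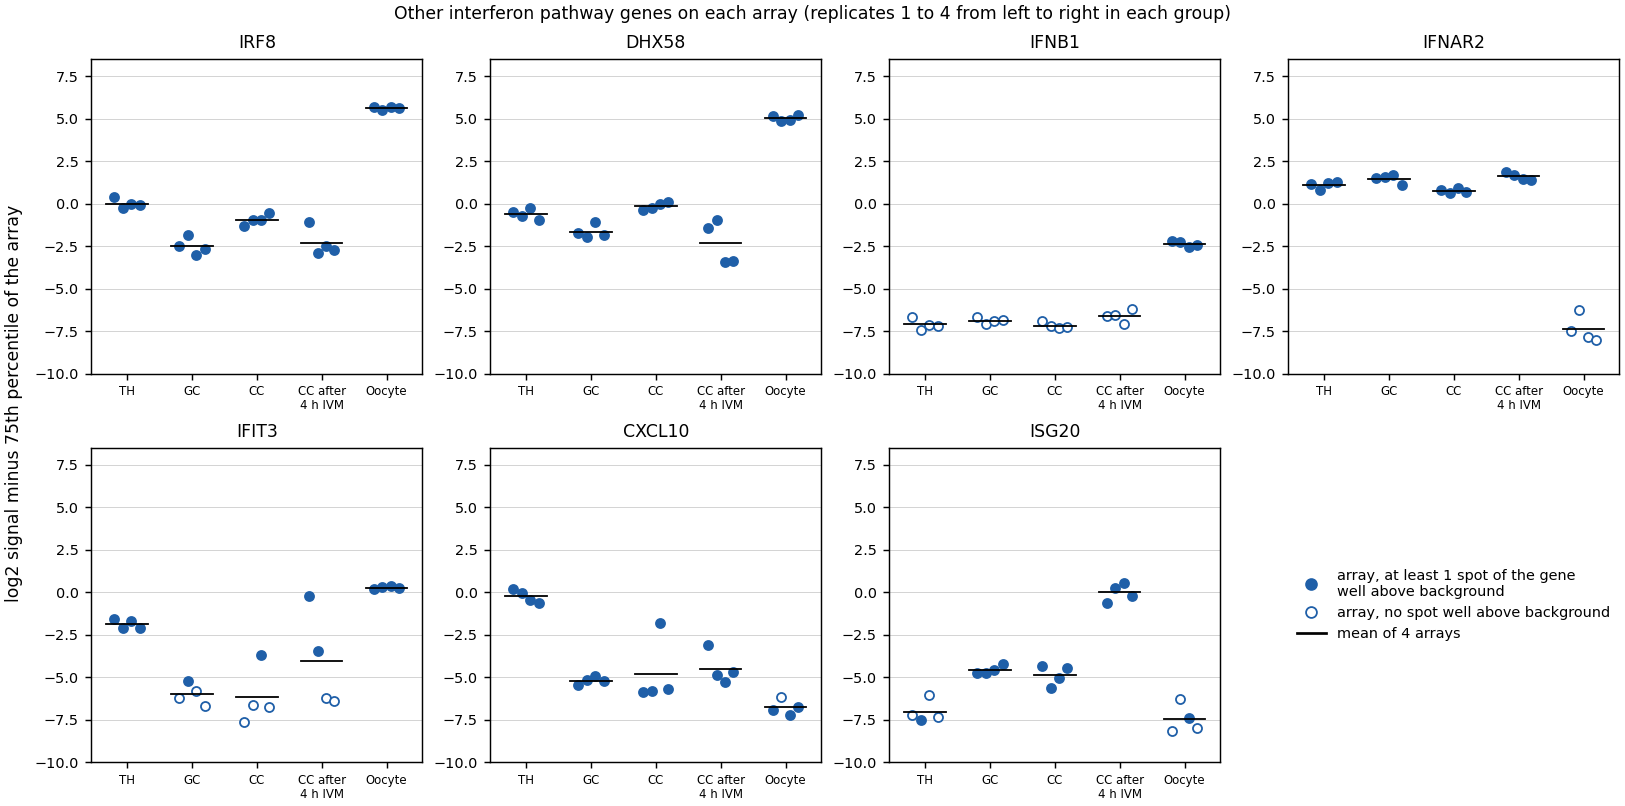
Level of 7 other pathway genes (y axis, log2 signal minus the 75th percentile of the array) on each array, drawn as for the 7 members. IRF8, DHX58 and IFNB1 are highest in the oocyte, IFNAR2 is below background there, and CXCL10 and IFIT3 on CC replicate 3 stand above the other CC arrays.

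In TH, 40 pathway genes were higher than in the mean of GC and CC and 10 were lower, where 14.3% and 18.5% of all genes were called. Of the 40, 28 were induced effectors. The largest rises were those of CXCL9 (at least 14.0-fold) and CXCL10 (difference 4.78, SE 0.58), chemokines that draw T cells, of IFIT3 (4.20), of TLR4 (at least 10.67-fold), which senses bacterial lipopolysaccharide, and of IFI30 (4.04), a thiol reductase of antigen processing. CXCL10 was -0.62 to 0.16 in TH, -5.47 to -4.95 in GC and -5.90, -5.83, -1.84 and -5.69 in CC. IFIT3 was above background on CC replicate 3 alone of the CC arrays, at -3.72, and CXCL9 likewise, at -2.75, so that these 3 genes stood high on the array that was also highest for ISG15 and IFI6. The leukocyte and endothelial marker sums given above rose with the same contrast, and their part in it was not tested. The genes that fell in TH included ISG20, an exonuclease that was above background on 1 TH array and on all GC and CC arrays, IFNE (GC and CC at least 1.75-fold higher) and IL10RB (by 1.24). With the 8 arrays of each slide alone, 21 and 22 genes were higher.

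In GC 2 genes were higher than in CC (4.61% of all genes) and 8 were lower (5.28%), and the others did not pass, so that the shares of pathway genes were near those of all genes. IRF8 fell by 1.55 (SE 0.23), DHX58 by 1.50, HERC5, which attaches ISG15 to proteins, by 1.49, and LGALS9 by 1.48 in GC against CC. These genes too were picked among those without overlap of the arrays. All 6 oocyte markers were above background on the CC arrays, and their summed signal was 0.561 to 3.00 in CC against 0.178 to 0.399 in GC, with CC replicate 4 the highest for the markers and for IRF8 and DHX58. The part of oocyte RNA in this contrast was not tested. GBP5 fell by 1.50, but it no longer passed when any 1 of the GC or CC arrays was left out. SAMHD1, which depletes nucleotides, rose by 1.16 and JAK1 by 0.57, though JAK1 no longer passed without any 1 of GC replicates 1 to 3 or CC replicates 1 to 3. MX1, IRF1 and IFIH1 were lower in GC than in CC as well, as described above. Within slide 1, where each group had 2 arrays, 0 genes passed by limma, with 10 higher and 9 lower at an unadjusted p of 0.05, and within slide 2 only 2 genes passed, both lower.

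In CC after 4 h of IVM, 26 pathway genes were higher than in CC and 19 lower, where 30.3% and 15.5% of all genes were called. The median of all genes was itself 0.37 in this comparison, and 0.01 with quantile normalization, under which 15 were higher and 19 lower. Among the 71 pathway genes above background on all 4 arrays of either CC group, 18 were higher and 18 lower. ISG20 rose most, from -4.32, -5.61, -5.07 and -4.47 in CC to -0.61, 0.23, 0.53 and -0.20, a difference of 4.86 (SE 0.34, adjusted p = 1.18e-05, limma). These medians lie between bright and dim spots, which all rose. The bright spots had means of -3.43 to -2.62 in CC and 3.08 to 3.91 after IVM. The dim spots, mostly not above background in CC, had means of -6.73 to -6.31 there and -3.40 to -3.22 after IVM. TRAF3, an adaptor of the sensor pathways, rose by 2.12 and TAP1, the peptide transporter of antigen presentation, by 1.64. IFNK, an interferon of epithelia, and IFIT1 were above background on no CC array and were at least 5.26-fold and 1.94-fold higher after IVM, IFNK being measured on 4 and IFIT1 on 3 of the IVM arrays. PARP9 fell by 2.48, DHX58 by 2.15, MYD88, the adaptor of Toll-like receptors, by 2.09, TYK2 by 1.94 and LGALS9 by 1.94. The oocyte marker sum also was lower after IVM, at 0.161 to 0.560, and its part in the fall of DHX58, a gene bright in the oocyte, was not tested. By the median over spots, ISG15 stood 2.75 higher after IVM, IRF1 1.35 lower, MX1 0.78 lower, IFI6 0.72 higher, IFIH1 0.61 lower and IFITM3 0.11 higher. For IRF1 and IFIH1 that median includes the dim probe. By its measured probe 2, IRF1 was -2.59 ± 0.61 after IVM against -0.95 ± 1.24 in CC, and overlapped CC by 1 array. IFIH1 was 0.80 lower after IVM by its probe 1. The differences of MX1, IFI6, IFIH1 and IFITM3 were each within the SD of the IVM arrays.

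By the means of the 5 groups, the genes of the array whose pattern lay nearest to ISG15 were DNAJB9, a chaperone of the endoplasmic reticulum (root mean square difference 0.15 on the log2 scale), TMEM41B (0.37) and LCORL (0.44). They were found among the 17431 genes that were above background on at least 3 arrays of a group. Nearest to IFITM3 were an unnamed transcript (0.18), SORBS2 (0.20) and IGFBP7 (0.24), to IFI6 LCAT (0.20), SNORND104 (0.21) and an unnamed transcript (0.23), and to MX1 S100A13 (0.18), SRD5A1 (0.22) and MSRA (0.28). IRF1 lay nearest to CA11 (0.15), RASGRP3 (0.24) and TLE2 (0.26), IFIH1 to RRBP1 (0.10), CHCHD10 (0.22) and ATP4B (0.27), and MX2 to DAG1 (0.10), NAV1 (0.14) and TRIM46 (0.15). The means of MX2 were at background in most groups, and those of IFIH1 and IRF1 include a dim probe. The nearest genes of MX2 and IFIH1 thus rest largely, and those of IRF1 partly, on background values. With 5 means per gene, such likeness is a description of these arrays.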

How the data were processed

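Bovine ovarian RNA was labelled with Cy3 and hybridized in 1 colour. For each array the authors deposited the Agilent Feature Extraction output (version 10.7.3.1 per the labels), which holds the intensity of each spot, with a processed signal from which local background was taken and no scaling across arrays. They also deposited a table of log2 values, which equalled log2 of the median pixel signal minus the median of the array. Control spots and spots marked as outliers were left out (at most 23 per array), and no spot was saturated. From log2 processed signal the 75th percentile of the array was subtracted, and the median over the spots of a gene was taken, a rule that the study also used. Of 9779 spots without a gene name, 734 were named through RefSeq accessions. DHX58 is listed on the array as LGP2 and IRF9 as ISGF3G.

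Models were fitted with limma 3.58.1 (R 4.3.3), and Python 3.11.15, pandas 2.3.3, numpy 2.4.6 and matplotlib 3.10.9 served for the summaries and plots. TH, GC, CC and oocyte arrays (16) formed 1 fit, and CC with CC after IVM (8) another, with Benjamini–Hochberg adjustment over all 22550 genes. Fits were tested on simulated data. A group of a pathway gene with no array above background was given a bound, as was the oocyte for any of the 7 genes with an array that did not pass. Each array was set at the higher of its own value and the lowest signal above background on that array. Members and lists were chosen with earlier results of these data known. The text names the 7 members, the pathway genes with the 5 largest rises and 5 largest falls past the threshold without overlap in each comparison, all measured ligands and receptors, the 3 genes nearest to each member and the cell type markers. Some genes that this rule names are not reported here. The number of arrays limits the precision. The study calls the replicates biological, and gives no account of which animals they came from, so p-values measure the spread between these samples. Alternatives were other background corrections, scalings, probe summaries, filters and blocks, and leaving out each array.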

Additional observations from a re-analysis of the deposited data

Results flagged for a closer look

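In each group of 4 arrays the highest and lowest level of the 7 genes was set against the others (35 groups). By the cutoff of Dixon's test, 3 values stood apart from the other 3 arrays of their group by most of its whole range. The cutoff served only to pick values for description, since the genes were chosen with these levels known. Chance alone gives about 1 in 20 such groups, so some of the 35 would be picked by chance. Nothing is read from the count of 3. IFITM3 on GC replicate 1 was 6.85, where the other GC arrays were 5.58 to 5.78. ISG15 on CC replicate 3 was 2.33, where the other CC arrays were -0.21 to 0.12, and the summed leukocyte markers were also highest there of the CC arrays, at 2.35. IRF1 on oocyte replicate 2 was -6.19 and not above background, where the others were -7.75 to -7.59. The lowest signal that passed as above background was -4.02 on that array and -6.84 to -5.91 on the other oocyte arrays.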

How the results depend on the processing

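The counts of pathway genes in the oocyte and over the 4 cell types stayed within 1.5 times under every alternative run. For CC after IVM, higher genes numbered 26 and were 15 with quantile normalization, 67 with normexp background correction, 43 with the deposited log2 table and 40 with the slide as a random block, beside 19, 15, 21 and 25 lower. For GC against CC, the 2 higher genes were 1 with the array median, with the brightest probe or with all 20 arrays in 1 fit, 4 with a percentile over probes above background on all arrays and 0 with the deposited table (5 at an unadjusted p of 0.05, limma), and the 8 lower were 5 with all 20 arrays. Within slide 1 the counts were 0 higher and 0 lower for GC against CC (10 and 9 unadjusted, limma) and 21 and 6 for TH, and within slide 2 they were 0 (5 unadjusted, limma), 2, 22 and 3. The 10 genes lower in TH were 6 with normexp. Leaving out 1 array gave 1 to 6 higher genes for GC against CC (6 without GC replicate 4) and 17 to 28 for CC after IVM (17 without CC replicate 1), 6 to 12 lower for GC against CC (12 without oocyte replicate 2), and less than 1.5 times either way for the other counts. With the replicate number as a block the IVM counts were 18 and 18 and no count moved by more than 1.5 times, and same-numbered arrays correlated from -0.15 to 0.34 in their deviations, over 0.1 in all 4 pairs of TH with GC alone, so the numbers were not taken as pairs across the 4 cell types. MX2 reversed with normexp in GC against CC (0.10) and IVM against CC (0.40), and with the deposited table in the latter (0.049). STAT2 in the oocyte reversed with the deposited table (-0.19) and normexp (-1.01). Other differences of the 7 genes kept their direction or moved by less than the spread of replicates, apart from 23 that moved more, among them oocyte differences under normexp and the deposited table, where ISG15 was -4.90 and -4.94. The cause was not tested. Array number and signal over background limit MX2, IRF1 and IFIH1.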
